A study of Mus musculus with 18 samples.

Results

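Immediate early genes are transcribed within minutes of a signal and need no new protein for it. Serum response factor with its Elk partners, Creb and NF-kB turn them on, and the MAP kinases carry the signal to these factors. Many of the products are transcription factors themselves, such as Fos and Jun, which pair as AP-1, and Egr1, Myc and Atf3.

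The 10 genes described here were Ier3, Ier2, Fos, Fosb, Jun, Junb, Jund, Egr1, Myc and Atf3, named by a list of symbols. A member probe set is one whose platform annotation gave 1 of these symbols and no other. A probe set is a group of short oligonucleotides on the array that is read as 1 intensity. Of the 10 genes, 9 had a probe set, among 6137 genes named on the arrays, and Fosb is not analysed here. They held 11 of the 13057 probe sets that were not controls, 5 on array type a and 6 on array type b.

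Mouse embryos of embryonic day 9.5 were cut into 3 parts and the middle one gave the RNA. They were homozygous mutant, heterozygous or wild type for Nkx2-5 (Csx), which encodes a transcription factor needed for heart development. Each genotype had 3 arrays of each of the 2 array types, which carry different probe sets. By the numbers in the titles these were homozygous mutant 2, 6 and 8 on type a and 2, 6 and 9 on type b, then heterozygous 3, 4 and 8, and wild type 1, 5 and 7 on both. The labels name neither the mutant allele nor the strain. They do not say whether an array held 1 embryo or a pool, or whether numbers mark separate animals, so the p-values below measure only the spread between these arrays, which may be technical.

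The arrays of the highest homozygous mutant number stood apart from the others in control signals. The ratio of actin signal near the 3' end to that near the 5' end was 2.5 on type a and 2.28 on type b there, against 0.967 to 1.41 and 0.849 to 1.4 on the other arrays. On type b the endoderm marker Afp read 3642 in homozygous mutant 2, 3309 in heterozygous 4 and 3515 in wild type 1, against 336.7 to 705.9 elsewhere. Heart and blood markers were present: all 6 heart markers on the arrays and 6 of 7 erythroid markers passed the filter described next, among them cardiac actin Actc1 with means of 61323, 57167 and 65764 in homozygous mutants, heterozygotes and wild type. The genotypes were not checked through Nkx2-5 itself, which no probe set was named for. In whole tissue, fewer cells of a type and less RNA per cell cannot be told apart.

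The floor was an intensity of 375.1 on type a and 523.1 on type b, which is 2 times the noise SD read from the negative values. Values under it were set to it before log2 was taken, and probe sets above the floor on 3 or more of 9 arrays entered the test. Of the 11 member probe sets 8 passed, for 7 genes, and 3 did not, for Fos and Junb. Ier3 and Atf3 passed only through the homozygous mutant arrays, so for them the filter itself asks for a higher signal in that genotype.

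Ier3 rose in the homozygous mutants and was the only member that passed the test. Of 6935 tested probe sets, 48 or 0.692% were called in homozygous mutants against wild type at an adjusted p under 0.05, 0.505% as higher and 0.187% as lower. Among the 8 member probe sets 1 was called higher and none lower by limma, and the other 7 had unadjusted p-values of 0.0772 or more. The rise of Ier3 was known when the genes were chosen, so its call is not read as a result about the members as a set. Against the heterozygotes 1.15% of the tested probe sets were called, 0.735% as higher and 0.418% as lower, and Ier3 was again the only member among them, as higher. There, 1 of the other 7 had an unadjusted p under 0.05, the second Jund probe set, where 15.7% of all tested probe sets did. Against wild type it was none of the other 7, where 11.2% of all did.

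Arrays of homozygous mutants and wild type did not overlap at 4 of the 8 tested member probe sets, Ier3 and Atf3 as higher and both of Jund as lower, where 15.9% of all tested probe sets did not overlap. Against heterozygotes it was Ier3 and Atf3, both higher, where 23.5% did not overlap, 10.2% as higher and 13.3% as lower. Since Ier3 and Atf3 entered the test through their mutant arrays alone, no more is read from these counts.

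Ier3 encodes a short membrane-linked glycoprotein, also called IEX-1 or gly96, that responds to NF-kB and growth factor signals and modulates cell death and ERK signalling. The gene lies on chromosome 17 (RefSeq, GRCm38.p6, chr17:35821713-35822911). On type b its intensity was 4529, 2665 and 3591 in homozygous mutants 2, 6 and 9. It was -148, -55.5 and -32.2 in heterozygous 3, 4 and 8, and 452.2, 85.3 and 45.2 in wild type 1, 5 and 7. All 3 mutant arrays lay far above the floor and all 6 other arrays lay under it, so the groups did not overlap. Separation upward from wild type occurred in 7.38% of the tested probe sets.

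The mean of Ier3 was 3595 ± 932 in homozygous mutants, -78.5 ± 61.1 in heterozygotes and 194.2 ± 224 in wild type (SD, n = 3 each). Since every array of the other genotypes was under the floor, the fold is a bound: Ier3 was at least 6.72-fold higher in homozygous mutants than in wild type, and the same bound holds against heterozygotes. The log2 fold change was 2.75 (SE 0.255, 95% interval 2.19 to 3.31, limma adjusted p = 0.000629). The size is set by the floor, with 1.75 at 2 times the floor and 3.48 with the floor lowered 2-fold, so no rank among the tested probe sets is given. Against heterozygotes the adjusted p was 0.00056 in the same fit. The SE comes from the mutants and from the spread that limma shares across probe sets. The 6 arrays set to the floor carry no spread of their own but still count in the fit, which lowers the SE. The interval and the adjusted p do not cover the choice of floor, and the 3.48 above lies outside the interval.

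Ier3 was as high without the mutant array of the raised actin ratio, with a log2 fold change of 2.73 (limma adjusted p = 0.00249). Among the Afp-high arrays it was 4529 in homozygous mutant 2, against -55.5 in heterozygous 4 and 452.2 in wild type 1. Among the others it was 2665 and 3591 in homozygous mutants, against at most 85.3 in the remaining arrays of both other genotypes. With the Afp level as a block the log2 fold change stayed at 2.75 (adjusted p = 0.00149).

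Markers of other tissues are given beside these values. Of 7 markers of gut and surface epithelium 6 were on the arrays and 5 were tested, Krt19 alone was called higher against wild type, and Epcam did not pass the filter. The summed intensity of the 4 on type a was 7975 to 10920 in homozygous mutants, 3143 to 4094 in heterozygotes and 2646 to 4112 in wild type. The 2 on type b, the array type of Ier3, summed to 5775 to 11732 in homozygous mutants, 4986 to 7486 in heterozygotes and 5129 to 5778 in wild type, with overlap between homozygous mutants and heterozygotes and, by a narrow margin, wild type. These markers differed. Krt19 had means of 3763, 675.7 and 734.0 in homozygous mutants, heterozygotes and wild type, and Krt18 had 4271, 1936 and 1722. Krt8 and Cdh1 also had their highest mean in homozygous mutants. Foxa2 had a mean of 684.0 in homozygous mutants, 960.6 in heterozygotes and 779.9 in wild type.

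Of 8 neural markers 7 were on the arrays and 6 were tested, and limma called none against wild type and 1 lower against heterozygotes, while Pax6 did not pass the filter. The 4 on type a summed to 5073 to 8194 in homozygous mutants, 10360 to 12899 in heterozygotes and 10250 to 13058 in wild type. The 3 on type b summed to 1792 to 3379 in homozygous mutants, 4002 to 4389 in heterozygotes and 3620 to 6808 in wild type. Tubb3 had means of 568.3, 1942 and 2751 in homozygous mutants, heterozygotes and wild type, and Hes5 had 1273, 2950 and 2624. Fabp7 had 820.8, 2088 and 1944 in that order, and Sox2 and Nes also had their lowest mean in homozygous mutants. Ncam1 was flat, with means of 1879, 1879 and 1878 in that order. Of the 5 myeloid and platelet markers on the arrays 3 were tested and none was called, by limma, and Csf1r and Spi1 did not pass the filter. The part of these tissues in the signal of Ier3 was not tested.

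**Figure D1:**
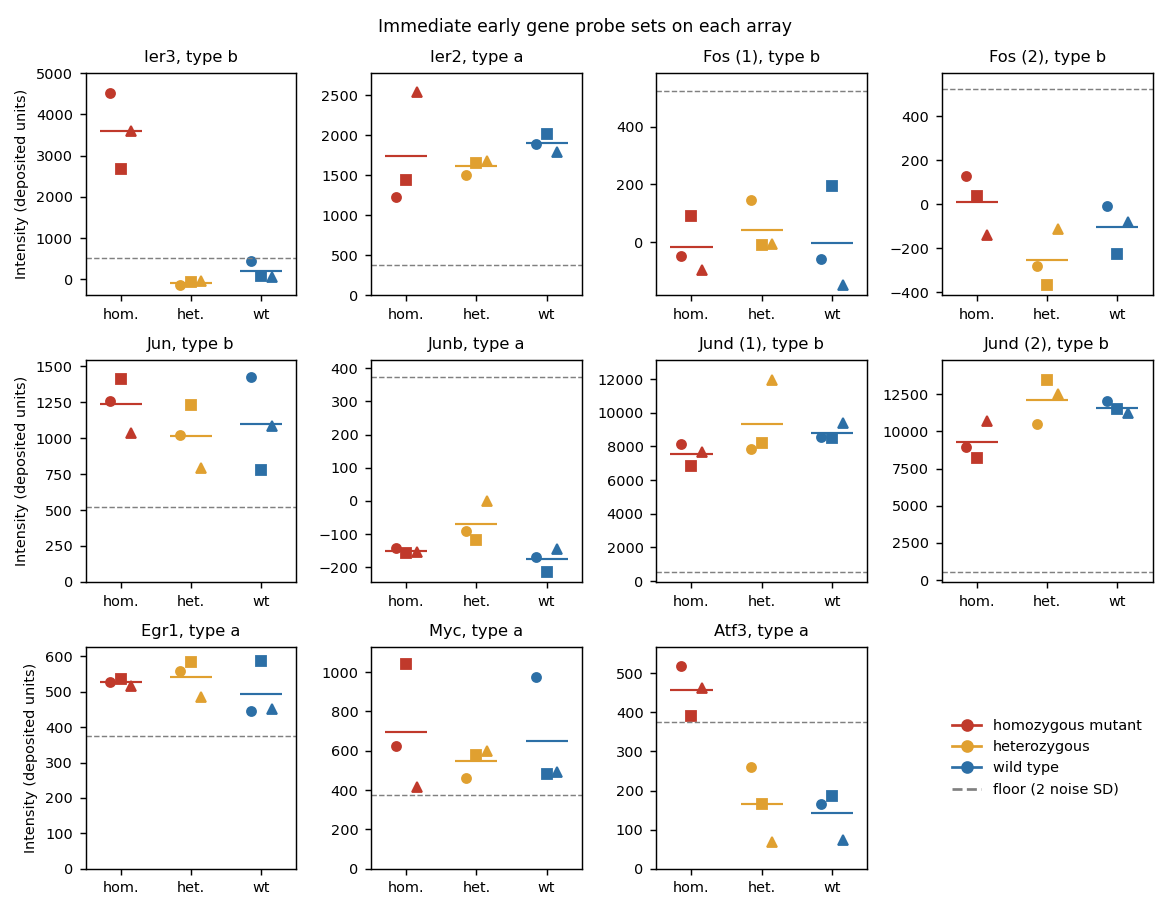
Deposited intensity of each of the 11 member probe sets (vertical axes, each with its own linear range) on every array, for homozygous mutant (hom.), heterozygous (het.) and wild-type (wt) embryos. Points are arrays, with marker shapes for the replicates of a genotype in the order of their numbers, horizontal lines are means of 3 arrays, and dashed lines are the floors of 375.1 (type a) and 523.1 (type b); Ier3 and Atf3 are the panels in which only the mutant arrays lie above the floor.

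The proximal promoters of Ier3 and Atf3, whose signal exceeded the floor in homozygous mutants alone, and of Fos, whose signal did so in no genotype, are shown for comparison. Promoters were taken from RefSeq (GRCm38.p6), which matched 7 of the 10 genes in the table used here, and the 250 bases before the transcription start were searched on both strands. Capitals mark the core of the hypoxia response element (ACGTG), the short form of the cAMP response element (TGACG), the AP-1 site (TGACTCA), the NF-kB site, TATAAA, and the serum response element or CArG box.
Ier3, chr17:35821463-35821712, plus strand
Ier3: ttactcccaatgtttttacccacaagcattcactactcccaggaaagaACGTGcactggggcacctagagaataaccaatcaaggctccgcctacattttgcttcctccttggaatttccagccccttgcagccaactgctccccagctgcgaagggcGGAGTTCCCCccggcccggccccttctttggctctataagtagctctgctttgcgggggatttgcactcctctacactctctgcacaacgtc
Atf3, chr1:191183334-191183583, minus strand
Atf3: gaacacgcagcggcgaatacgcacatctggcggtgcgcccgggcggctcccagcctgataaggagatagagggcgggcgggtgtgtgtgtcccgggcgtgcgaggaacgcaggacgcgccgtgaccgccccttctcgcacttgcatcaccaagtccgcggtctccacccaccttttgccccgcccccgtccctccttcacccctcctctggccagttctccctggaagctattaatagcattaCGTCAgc
Fos, chr12:85473640-85473889, plus strand
Fos: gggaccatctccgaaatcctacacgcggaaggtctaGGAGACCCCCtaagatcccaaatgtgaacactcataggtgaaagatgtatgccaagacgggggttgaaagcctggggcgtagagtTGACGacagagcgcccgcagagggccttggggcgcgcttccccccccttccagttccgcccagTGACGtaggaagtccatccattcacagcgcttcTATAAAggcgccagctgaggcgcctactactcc

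In the Ier3 promoter the capitals are an ACGTG that begins 202 bases before the start and an NF-kB match that begins 92 bases before it. In the Fos promoter they are TGACG at 129 and at 66 bases, TATAAA at 33 bases and an NF-kB match at 214 bases. In the Atf3 promoter they are a single TGACG, read on the opposite strand, 7 bases before the start. The NF-kB matches of Ier3 and Fos were read on the opposite strand as well. No CArG box or AP-1 site was found in any of the 7 promoters, and bases further upstream, where such sites may lie, were not searched. Among 32526 distinct promoter windows of the same length, ACGTG occurred in 16.7%, TGACG in 17.9%, TATAAA in 12.3%, the AP-1 site in 4.45%, the NF-kB site in 3.92% and the CArG box in 1.48%. A match is a description of the letters and not a bound site.

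Ier2, a nuclear protein of the Ier family by name that responds to growth factors, did not pass the test. It read 1233, 1445 and 2536 in homozygous mutants 2, 6 and 8, then 1507, 1656 and 1679 in heterozygous 3, 4 and 8, and 1895, 2019 and 1789 in wild type 1, 5 and 7. The mutants spread most and overlapped both other genotypes: 2 of their arrays were the lowest of all 9 and the third was the highest. The log2 fold change against wild type was -0.20 (95% interval -0.77 to 0.37, limma adjusted p = 0.86). The high array was the one with the raised actin ratio, and without it the value was -0.51 (adjusted p = 0.316). The heterozygotes lay below all wild-type arrays, with -0.24 (adjusted p = 1), a separation downward seen in 2.84% of tested probe sets.

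Fos, the partner of Jun in AP-1, stayed in the noise in all genotypes. Its first probe set had -48.5, 91.4 and -95 in homozygous mutants 2, 6 and 9, with 147.1, -9.4 and -7.3 in heterozygous 3, 4 and 8 and -57.1, 193.2 and -150 in wild type 1, 5 and 7. Its second probe set never exceeded 129.8, the value of homozygous mutant 2. No array of any genotype reached the floor, so no fold is given and a change of Fos below the floor was not detectable. Junb, another AP-1 subunit, was negative on every array, between -156 and -143 in homozygous mutants, -119 and -0.7 in heterozygotes and -215 and -146 in wild type. It was not well above background in any genotype.

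Jun, the AP-1 subunit that is a target of the stress-activated JNK kinases, was above the floor on all 9 arrays. It had 1262, 1415 and 1036 in homozygous mutants 2, 6 and 9, then 1022, 1232 and 794.6 in heterozygous 3, 4 and 8, and 1426, 781.8 and 1086 in wild type 1, 5 and 7. The genotypes overlapped, and wild type held both the lowest and the highest array. Its log2 fold change was 0.20 in homozygous mutants against wild type (95% interval -0.46 to 0.87, limma adjusted p = 0.88) and 0.30 against heterozygotes (adjusted p = 0.671).

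Jund, the Jun family member that is present in unstimulated cells and tends to restrain growth, gave the brightest member signals. Its first probe set had 8146, 6846 and 7680 in homozygous mutants 2, 6 and 9. It had 7869, 8220 and 11931 in heterozygous 3, 4 and 8 and 8566, 8498 and 9369 in wild type 1, 5 and 7. Its second had 8972, 8239 and 10713 in the same homozygous mutants. There the heterozygotes had 10472, 13451 and 12515 and wild type had 12057, 11504 and 11269. At both probe sets the homozygous mutants lay below every wild-type array, as in 8.57% of all tested probe sets, and overlapped the heterozygotes.

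The difference of Jund did not pass the test at either probe set. The log2 fold change against wild type was -0.22 (95% interval -0.63 to 0.19, limma adjusted p = 0.725) at the first and -0.33 (-0.70 to 0.04, adjusted p = 0.511) at the second. Against heterozygotes it was -0.28 (adjusted p = 0.483) and -0.38 (adjusted p = 0.298). Both probe sets carry the maker's suffix for a sequence family, so related transcripts may add to their signal, and both read the same RNA.

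Egr1, a zinc finger factor that growth factors and mechanical stress induce, read just above the floor with little spread. It had 528.5, 536.7 and 516.1 in homozygous mutants 2, 6 and 8, then 558.0, 585.3 and 485.2 in heterozygous 3, 4 and 8, and 446.2, 586.4 and 451.9 in wild type 1, 5 and 7. The mutant values lay inside the range of both other genotypes. Its log2 fold change was 0.10 (95% interval -0.32 to 0.52, limma adjusted p = 0.905). At 2 times the floor every array was set to the floor and the log2 fold change was 0, so signal over background limits Egr1.

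Myc, a driver of growth and ribosome production, varied widely in homozygous mutants and wild type and less in heterozygotes. It had 624.1, 1041 and 416.3 in homozygous mutants 2, 6 and 8, then 459.2, 577.9 and 600.9 in heterozygous 3, 4 and 8, and 976.8, 483.1 and 494.4 in wild type 1, 5 and 7. Homozygous mutant 6 and wild type 1 were high, and the groups overlapped. Its log2 fold change was 0.071 (95% interval -0.72 to 0.86, limma adjusted p = 0.964), and it was -0.27 without homozygous mutant 6, -0.10 without wild type 5 and -0.087 without wild type 7.

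Atf3, a transcription factor of the integrated stress response, had the same layout as Ier3 at a far lower signal. It had 517.9, 391.4 and 462.1 in homozygous mutants 2, 6 and 8, against 259.5, 166.4 and 68.6 in heterozygous 3, 4 and 8 and 165.3, 184.9 and 74.8 in wild type 1, 5 and 7. Every mutant array lay above the floor of 375.1 and every other array under it, so the groups did not overlap. Atf3 entered the test through its mutant arrays alone, so the filter itself asks for a higher signal there. Separation upward occurred in 7.38% of tested probe sets against wild type and in 10.2% against heterozygotes. The noise SD of type a was 187.5.

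The test did not call Atf3. It was at least 1.21-fold higher in homozygous mutants than in wild type, 0.28 on the log2 scale (SE 0.152, adjusted p = 0.535 in limma), and had the same bound against heterozygotes (adjusted p = 0.408). The size depends on the treatment of low values: it was 1.28 with the floor lowered 2-fold (adjusted p = 0.17) 0.69 with the floor as a pseudocount (adjusted p = 0.21) and 0 at 2 times the floor (adjusted p = 1). Under none of the alternatives tried did it pass, with adjusted p-values from 0.17 upward against wild type.

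**Figure D2:**
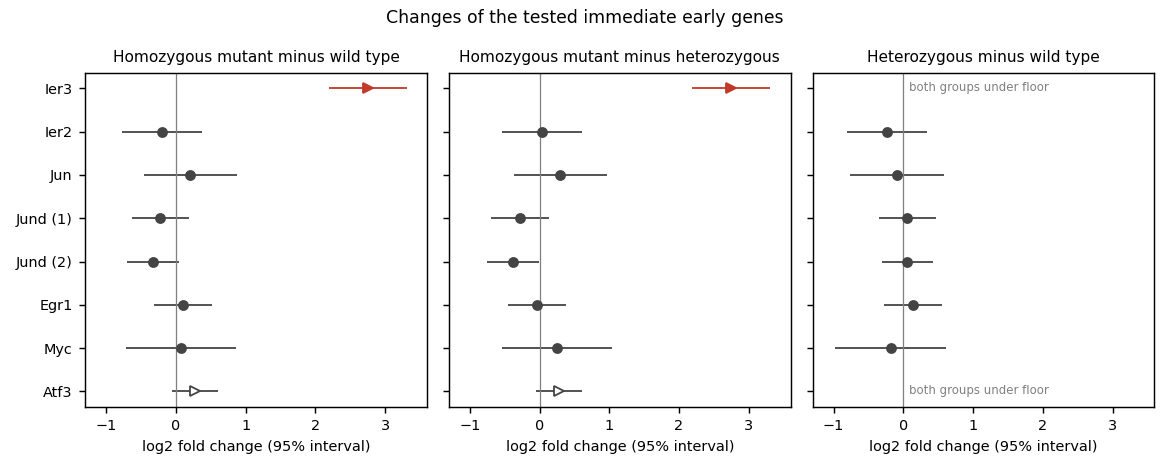
Log2 fold change of the 8 tested member probe sets in homozygous mutants minus wild type, homozygous mutants minus heterozygotes and heterozygotes minus wild type, with 95% intervals from limma. Red marks an adjusted p under 0.05 and triangles mark lower bounds, where the other genotype was under the floor on every array; Ier3 stands at 2.75 in both mutant comparisons and the other points lie between -0.38 and 0.30.

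The change of Ier3 was set against that of the members on the same arrays, Jun and both Jund probe sets. In homozygous mutants against wild type it exceeded that of Jun by 2.54 on the log2 scale (SE 0.411), and that of Jund by 2.97 (SE 0.277) at the first probe set and 3.07 (SE 0.279) at the second. Against heterozygotes the differences were 2.45, 3.03 and 3.13 in the same order. Since Ier3 is a bound in both comparisons, these differences are bounds too.

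These differences describe Ier3 more than Jun or Jund, and no p is given for them. The rise of Ier3 was known when the genes were chosen, it entered through its mutant arrays, and its 6 other values are set to the floor. In the same limma fit the change of Ier3 exceeded that of 99.8% of the 2965 other tested probe sets of type b in each mutant comparison at an adjusted p under 0.05. The difference had the opposite sign and passed for 1 of 2965, 0.0337%, against wild type, that of Ddit4 (-0.60). As Ier3 is a bound, this does not show a greater rise of Ddit4: the change of Ier3 was 3.48 with the floor lowered 2-fold, where that of Ddit4, above the floor on all arrays, was 3.35. Ier2, Egr1, Myc and Atf3 were read on type a, and their changes of -0.20, 0.10, 0.071 and at least 0.28 stand beside that of Ier3 without a test of the difference.

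Among the named genes of type b, the pattern of Ier3 over the 9 arrays was most like that of Ddit4, Rnf19a, Ctsl, Anxa2 and Cd36. The Pearson correlation of log2 values with Ier3 was 0.99 for Ddit4, 0.98 for Rnf19a, 0.97 for Ctsl, 0.97 for Anxa2 and 0.94 for Cd36, highest of 1082 named probe sets. The arrays fall into 2 clusters, 3 mutants and 6 others, so these values describe mainly that split and carry no p. Among the members Jun had 0.37, and Jund had -0.52 and -0.76.

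Ddit4, an inhibitor of mTORC1 that stress and low oxygen induce, had 25899, 20958 and 24797 in homozygous mutants 2, 6 and 9, against 1937, 3020 and 3090 in heterozygous 3, 4 and 8 and 2618, 2208 and 2219 in wild type 1, 5 and 7. Rnf19a, a ubiquitin ligase, had a mean of 1434 ± 162 in homozygous mutants, with 351.6 ± 23.6 in heterozygotes and 315.1 ± 95.1 in wild type (SD, n = 3 each), under the floor on all arrays of both. It was at least 1.45 higher on the log2 scale (limma adjusted p = 0.00472), and it entered the test through its mutant arrays alone. Ctsl, a lysosomal protease, had means of 12009 ± 974, 5079 ± 645 and 5291 ± 468 in homozygous mutants, heterozygotes and wild type, with a log2 fold change of 1.18 against wild type (adjusted p = 0.00944). Anxa2, a membrane-binding annexin, had 9598 ± 1350, 2865 ± 140 and 3544 ± 921 in that order, with 1.46 (adjusted p = 0.0105). These genes were picked by their likeness to Ier3 over the same arrays, so their p-values are no separate support.

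Cd36, a fatty acid transporter, did not pass, with a mean of 746.2 ± 71.3 in homozygous mutants and under the floor on all other arrays (log2 at least 0.51, adjusted p = 0.155). Like Rnf19a, it entered the test through its mutant arrays alone. The most opposed named genes were Hcfc1, a transcriptional coregulator, at -0.95, the splicing factor Srsf6 at -0.94 and Rcc1, the exchange factor of Ran, at -0.94. Hcfc1 had 438.1 ± 74.7 in homozygous mutants, under the floor on all 3 arrays, against 2010 ± 171 in heterozygotes and 1442 ± 237 in wild type.

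**Figure D3:**
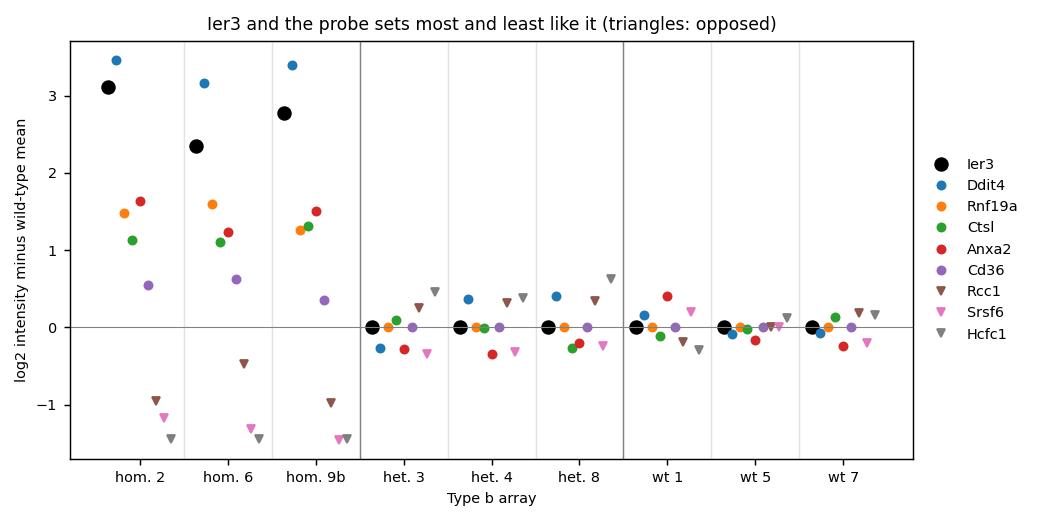
Log2 intensity minus the wild-type mean (values under the floor set to it) on each type b array for Ier3 and for the 5 named probe sets most like it (circles) and the 3 most opposed to it (triangles). In the homozygous mutants (hom.) Ier3, plotted from the floor, and Ddit4 lie above 2 on every array and the other like genes lie lower, and in the heterozygous (het.) and wild-type (wt) arrays the points lie closer to 0.

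Of 55 further immediate early genes 43 had a probe set and 26 were tested, and limma called none of them in any comparison. At an unadjusted p under 0.05 there were 4 of 26 against wild type, where 450 of the 3909 tested genes or 11.5% were, and 6 of 26 against heterozygotes, where 627 or 16.04% were. The median log2 fold change of the 26 was 0.12 against wild type and 0.11 against heterozygotes, beside -0.035 and -0.069 over all tested genes. The 17 not tested included Egr2, Fosl1, Nr4a2, Klf4, Cebpb, Cebpd, Ptgs2, Socs3 and Tnfaip3, which did not exceed the floor on 3 arrays.

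Dusp6, a phosphatase that ERK signalling induces and that in turn switches ERK off, had the smallest p among the higher ones. It had 7556, 6070 and 4462 in homozygous mutants 2, 6 and 8, against 3183, 3275 and 3125 in heterozygous 3, 4 and 8 and 4826, 2421 and 3370 in wild type 1, 5 and 7. The mutants lay above all heterozygotes, as in 10.2% of all tested probe sets, and overlapped wild type at 1 array. It was higher by 0.79 on the log2 scale (SE 0.248, limma adjusted p = 0.227) against wild type and 0.88 (adjusted p = 0.113) against heterozygotes. On the lower side it was Mcl1, a survival factor of the Bcl2 family, with 2139 ± 439 in homozygous mutants, 2988 ± 479 in heterozygotes and 3102 ± 246 in wild type (SD, n = 3 each, log2 fold change -0.56, adjusted p = 0.315).

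Against heterozygotes the smallest p-values were those of Ccn2, a matrix protein known as connective tissue growth factor, and Rhob, a small GTPase. Ccn2 had 1353, 1024 and 705.4 in homozygous mutants 2, 6 and 8, against 472.0, 574.2 and 397.5 in heterozygous 3, 4 and 8 (log2 fold change 1.06, limma adjusted p = 0.09). Without homozygous mutant 8, the array of the raised actin ratio, it was called (1.31, adjusted p = 0.0445). Rhob was under the floor in all homozygous mutants, so that -1.12 is a bound (adjusted p = 0.1), with 765.1, 1019 and 1887 in heterozygous 3, 4 and 8.

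None of the 14 tested AP-1 and Atf partners was called by limma in either mutant comparison, and 1 of 14 had an unadjusted p under 0.05 in each, beside 11.5% of all tested genes against wild type and 16.04% against heterozygotes. Atf4, the main transcription factor of the integrated stress response and a regulator of Atf3 and Ddit4, had 16864, 15157 and 14434 in homozygous mutants 2, 6 and 8, against 10889, 10492 and 11223 in heterozygous 3, 4 and 8 and 10739, 11656 and 8425 in wild type 1, 5 and 7. All mutant arrays lay above all others. Separation upward occurred in 7.38% of all tested probe sets against wild type and in 10.2% against heterozygotes. The difference was 0.60 on the log2 scale (SE 0.150, adjusted p = 0.117) against wild type and 0.51 (adjusted p = 0.131) against heterozygotes. On the lower side the smallest p was that of Maf, a large bZIP factor of the AP-1 family. Its type a probe set had -0.23 (adjusted p = 0.683) against wild type and -0.37 (adjusted p = 0.318) against heterozygotes. Its type b probe set had the opposite sign, with 0.059 (adjusted p = 0.965) and 0.40 (adjusted p = 0.587) in that order. The list's median log2 fold change was 0.0093 against wild type and -0.085 against heterozygotes.

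The Myc network and the MAP kinase and serum response pathway also held no call by limma in either mutant comparison. In the Myc network 2 of 15 genes against wild type and 3 of 15 against heterozygotes had an unadjusted p under 0.05, shares of 13.3% and 20.0% beside 11.5% and 16.04% of all tested genes. Mxi1, an antagonist of Myc, had 971.6 ± 311 in homozygous mutants, 493.9 ± 68.3 in heterozygotes and 501.5 ± 98.7 in wild type, a log2 fold change of 0.92 against wild type (adjusted p = 0.222). Mycl, a relative of Myc, had 1354 ± 425, 2289 ± 219 and 2368 ± 255 in the same order, with -0.85 (adjusted p = 0.248). In the kinase and serum response list 4 of 19 or 21.1% had an unadjusted p under 0.05 in each mutant comparison. Dusp6 had the smallest p on the higher side of both, and on the lower side it was the kinase Map2k2 against wild type (-0.46, adjusted p = 0.35). On the lower side against heterozygotes it was a probe set of Mapkapk2, a kinase downstream of p38 (-0.69, adjusted p = 0.285), while its other probe set had 0.39 (adjusted p = 0.777). Map2k1, the partner of Map2k2 upstream of ERK, had 0.92 against wild type (adjusted p = 0.35), so these related kinases differed in sign. The median log2 fold changes were 0.0017 for the Myc network and 0.0074 for the kinase list against wild type, and 0.039 and -0.16 against heterozygotes.

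**Figure D4:**
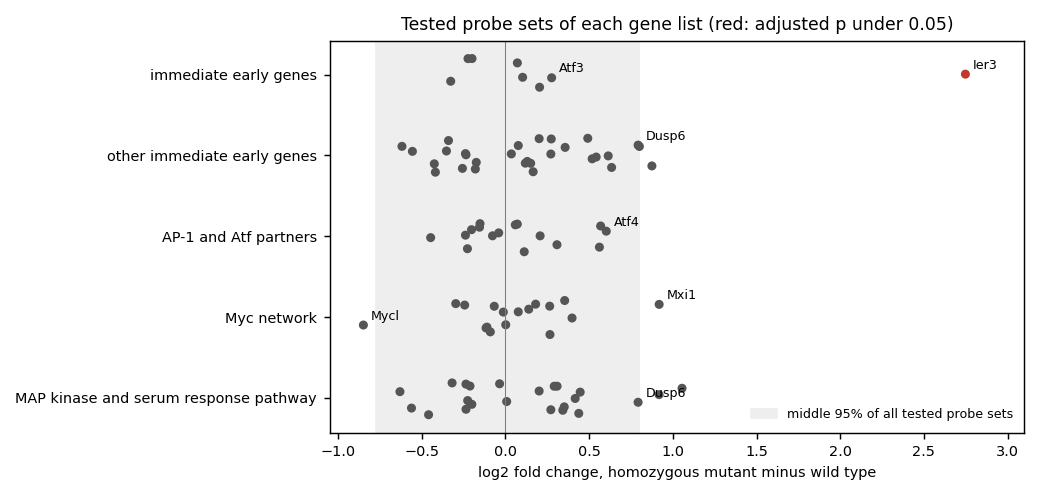
Log2 fold change in homozygous mutants minus wild type of every tested probe set of the members and of the 4 further gene lists, 1 row each with vertical jitter, and a grey band for the middle 95% of all tested probe sets (-0.77 to 0.80). Ier3 at 2.75 is the only red point, which marks an adjusted p under 0.05; the second highest member is Atf3, whose 0.28 is a bound.

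No member was called in heterozygotes against wild type. Ier3 and Atf3 lay under the floor in both heterozygotes and wild type, so no fold is given. The log2 fold changes of the others in heterozygotes against wild type were -0.24 for Ier2, -0.092 for Jun, 0.060 and 0.058 for Jund, 0.14 for Egr1 and -0.18 for Myc, each with a limma adjusted p of 1. No probe set of the arrays was called in this comparison, 0%, and none of the 4 further lists held a call, while 118 of 6935 probe sets, 1.7%, had an unadjusted p under 0.05. Groups did not overlap at Ier2 and at Ier3, both lower in heterozygotes, where 6.73% of all did not overlap, 3.89% as higher and 2.84% as lower; all 6 arrays of Ier3 lay under the floor. The smallest p-values of the lists were those of Rhob (0.77), Creb1 (0.42), Mnt (0.58) and Elk3 (0.68) on the higher side and of Odc1 (-0.35), Maf (-0.34) and Map2k2 (-0.22) on the lower side, all with an adjusted p of 1. The value of Maf is that of its type b probe set, and its type a probe set had 0.15. Heterozygous and homozygous mutant arrays are each set against the same wild-type arrays, so these comparisons share their chance values.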

How the data were processed

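Total RNA was measured on 18 single-colour oligonucleotide arrays of 2 types, grouped by the genotype in the sample titles. What the authors deposited is an intensity for each probe set on a linear scale, with negative values, which shows that background was subtracted. The array software, background correction and scaling count as not given in the sources used here. The authors' scaling was kept. The mean intensity, trimmed by 2%, lay between 1481 and 1494 for type a. For type b it lay between 1471 and 1481, except 1624 in heterozygous 8, which lacks 499 values. No member probe set lacks a value. The number of arrays limits the precision.

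The 61 control probe sets of each type were left out. Platform annotation gave the symbols, and 7544 probe sets, controls included, were matched to a RefSeq symbol by gene identifier. Of the probe sets that were not controls, 7542 had 1 symbol, 224 several and 5291 none. The floor was 2 times the noise SD, which is 1.4826 times the median size of the negative values. limma 3.58.1 in R 4.3.3 (lmFit, eBayes with an intensity trend, two-sided) was fitted per array type on its 9 arrays, with Benjamini-Hochberg adjustment over 6935 probe sets of both types. Differences from Ier3 were fitted likewise on the log2 values of Ier3 minus each other probe set. Tested on simulated data for homozygous mutants against wild type, the fit called 65% of probe sets changed by 1 on the log2 scale on type a (3969 probe sets) and 57% on type b (2883 without missing values), and 93% of those changed by 2 on both. It also called 10 unchanged probe sets on type a and 11 on type b.

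Named genes are the members, the called and smallest-p genes of the lists, and the 5 most and 3 least like Ier3 among the named probe sets of its array type. Medians use the probe set of highest mean intensity of a gene. The members and lists were chosen with earlier results of these data known. Alternatives concerned the floor, the filter, the normalization, the spread estimate, array weights, an Afp block and the samples in the fit.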

Additional observations from a re-analysis of the deposited data

How the results depend on the processing

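Ier3 kept its direction and its call in all alternatives that tested it, with a log2 fold change of 1.75 to 3.48 against wild type (adjusted p of 0.000404 to 0.0319) and of 1.75 to 3.75 against heterozygotes (4.95e-05 to 0.0141). It was 2.56 to 2.95 when 1 replicate was left out, in both comparisons. When 6 arrays had to exceed the floor it was not tested. Ier3 enters through its mutant arrays alone, and its other values lie low or are set to a floor. Its direction could therefore hardly turn in these alternatives, and that it was kept adds little. No other member was called in any alternative.

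The 48 probe sets called against wild type became 19 without a filter and 7 with only the compared groups, and 14 to 46 when 1 replicate was left out, or 55 without homozygous mutants 8 (type a) and 9 (type b). It was 14 and 16 without wild type 5 and 7, 18 without homozygous mutant 2 and 27 without heterozygous 3. The 80 called against heterozygotes became 45 without a filter, 708 with array weights and 40 with only the compared groups, and 14 to 86 when 1 was left out, or 88 without homozygous mutants 8 and 9 (14 without heterozygous 3, 15 without heterozygous 4, 32 without homozygous mutant 2, 41 without heterozygous 8, 47 without wild type 5). In heterozygotes against wild type the count was 0 to 1, with 1 without heterozygous 8 and 1 without wild type 7. The cause was not tested. With array weights, where 708 of all 6935 tested probe sets were called against heterozygotes, the lists held calls too. These were 4 of 26 further immediate early genes (Dusp6, Btg1, Ccn2 and Klf2) and 2 of 14 partners (Atf4 and Batf). In the Myc network it was 1 of 15 (Mxi1), and in the kinase list 4 of 19. No more is read from these counts.

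Small log2 fold changes turned sign. When 1 replicate was left out, the ranges against wild type were -0.24 to 0.012 for Ier2, -0.020 to 0.41 for Jun and -0.27 to 0.40 for Myc. Against heterozygotes they were -0.089 to 0.33 for Myc (0.57 without homozygous mutant 8), -0.12 to 0.018 for Egr1 and -0.012 to 0.25 for Ier2. Without homozygous mutant 8 Ier2 was -0.51 against wild type and -0.27 against heterozygotes. In heterozygotes against wild type the ranges were -0.36 to 0.15 for Myc, -0.32 to 0.12 for Jun, and -0.13 to 0.17 and -0.020 to 0.16 for the Jund probe sets. Egr1 against heterozygotes was 0.076 after quantile normalization. With array weights Ier2 was -0.17 against heterozygotes, and in heterozygotes against wild type Jun was 0.0038 and the first Jund probe set -0.080. None of these was called.

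No paired analysis was made, because the labels name no pairs of arrays across genotypes. Signal over background limits Fos, Junb, Atf3 and Egr1, and the floor limits the size given for Ier3.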
